A study of Mus musculus with 48 samples.

Results

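The collagen genes were examined across brown fat (BAT), subcutaneous fat (SFAT) and visceral fat (EFAT) of male mice. The members were all rows of the count table annotated as protein coding whose symbol has the form of a collagen chain (Col, the type number, a, the chain number). There were 44 such genes of 22048 protein-coding genes and 47729 genes in all. They fell into 9 fibrillar genes (types 1, 2, 3, 5 and 11), 8 basement membrane genes (types 4, 15 and 18), 6 genes of type 6 and 21 others. The rule itself uses no expression value, but it was chosen with earlier results of these data known.

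Poly(A) RNA of Cth-/- and Cth+/+ mice was sequenced after 6 days on a cystine-free diet (CysF, described as cystine deficient) or a control diet (CTRL). Cth encodes cystathionine gamma-lyase, which makes cysteine from cystathionine. For each of the 3 depots there were 4 groups: Cth-/- on CysF, Cth-/- on CTRL, Cth+/+ on CysF and Cth+/+ on CTRL, with 4 libraries each, 48 in all. The labels give no age, strain or tissue beyond these, do not say whether libraries with the same number come from the same mouse, and do not describe the Cth-/- allele. All 24 Cth-/- libraries held 0 to 6 Cth counts, against 8 to 389 in the 24 Cth+/+ libraries. Total counts per library were 18.7 to 36.1 M for EFAT, between 16.2 and 39.0 M for SFAT and between 22.1 and 46.0 M for BAT. A few libraries stood apart in fixed marker lists: BAT replicate 8 was highest of its depot in skeletal muscle reads, SFAT replicate 14 in B cell reads, SFAT replicate 20 in muscle and mitochondrially encoded reads, and EFAT replicate 20 in epididymis and epithelium reads. Counts without these libraries are given beside the results.

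Collagens are secreted proteins of 3 chains wound into a triple helix, which needs 1 glycine in every 3 residues. Fibrillar collagens assemble into the load-bearing fibrils of the stroma, and in fat they are made mainly by fibroblasts and adipocyte progenitors. Type 4 collagen forms the network of the basement membrane that surrounds each adipocyte and blood vessel, where types 15 and 18 are also found. Type 6 collagen forms beaded filaments close to cells and is abundant around adipocytes. The remaining types include chains that decorate fibrils, short-chain network formers, membrane-anchored chains and cartilage collagens.

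The repeat that defines the family is visible in the coding sequence. In the transcript with the longest coding sequence (GENCODE M21, GRCm38), the longest run with a glycine codon at every 3 codons was 337 to 344 repeats in the 9 fibrillar genes. It was 30 to 66 repeats in basement membrane genes, 37 to 87 in type 6 genes and 23 to 217 in the others. Stretches of 30 codons are given from the inside of the run in 2 fibrillar genes and across its end in one gene of each of the next classes, with glycine codons in capitals. They are codons 672 to 701 of Col1a1 (chromosome 11, plus strand), 677 to 706 of Col3a1 (chromosome 1, plus strand), 142 to 171 of Col4a1 (chromosome 8, minus strand) and 496 to 525 of Col6a1 (chromosome 10, minus strand).
Col1a1: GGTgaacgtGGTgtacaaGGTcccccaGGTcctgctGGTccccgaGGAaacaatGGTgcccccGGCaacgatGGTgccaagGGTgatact
Col3a1: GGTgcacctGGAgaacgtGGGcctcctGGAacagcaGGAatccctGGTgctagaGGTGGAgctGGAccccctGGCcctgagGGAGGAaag
Col4a1: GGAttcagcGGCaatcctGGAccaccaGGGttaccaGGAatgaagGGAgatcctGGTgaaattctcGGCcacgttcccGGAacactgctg
Col6a1: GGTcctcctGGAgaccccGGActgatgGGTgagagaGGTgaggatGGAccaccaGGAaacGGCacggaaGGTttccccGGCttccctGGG
In Col1a1 and Col3a1 the glycine codons keep a spacing of 3 codons through the whole stretch. In Col4a1 and Col6a1 the spacing breaks within it.

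Since many members moved together, the 150 bases before RefSeq start sites (GRCm38.p6) were searched for 3 promoter motifs. For 35 of the 44 members 38 windows were matched, some of them at start sites inside the gene or overlapping exons. A member was counted if any of its windows held the motif, while the shares over all promoters are per window. CCAAT (both strands) occurred in 8 of the 35, TATAA (strand of the gene) in 4 and GGGCGG (both strands) in 19. Of all 32851 promoter windows of that length, 24.5% held CCAAT, 9.99% TATAA and 28.6% GGGCGG. The windows of 3 genes that were lower in all depots of Cth-/- mice on CysF are shown because they differ in these letters, with TATAA in capitals for Col3a1 (chr1:45311388-45311537, plus strand), GGGCGG in capitals for Col5a1 (chr2:27886275-27886424, plus strand) and no match for Col15a1 (chr4:47207862-47208011, plus strand).
Col3a1: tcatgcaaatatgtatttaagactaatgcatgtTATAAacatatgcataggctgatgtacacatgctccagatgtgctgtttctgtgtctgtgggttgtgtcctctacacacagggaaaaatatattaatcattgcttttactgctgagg
Col5a1: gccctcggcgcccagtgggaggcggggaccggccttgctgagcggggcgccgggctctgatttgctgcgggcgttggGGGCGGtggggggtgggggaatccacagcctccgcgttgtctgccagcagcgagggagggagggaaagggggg
Col15a1: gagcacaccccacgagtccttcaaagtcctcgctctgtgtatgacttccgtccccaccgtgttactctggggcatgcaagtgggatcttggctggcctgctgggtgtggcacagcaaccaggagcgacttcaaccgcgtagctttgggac
A match is only a run of letters, and its use by a factor was not tested.

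Levels are given per length, as reads per kilobase of that transcript, scaled to library size (RPKM). Col10a1, Col19a1, Col22a1, Col2a1, Col9a1 and Col9a2, several of them cartilage collagens, had at most 26 counts in any library and passed the filter on low counts in no depot. The filter left 37 members tested in EFAT, 36 in SFAT and 29 in BAT. In bulk tissue, fewer cells of a type and less RNA per cell cannot be told apart. The labels do not say that libraries of a group came from separate mice. The p-values therefore rest on the spread among the libraries, which may be technical.

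In Cth-/- mice the cystine-free diet was accompanied by lower collagen reads in all depots, most in the fibrillar and type 6 classes. Summed fibrillar reads averaged 528 ± 148 CPM (counts per M reads, TMM-scaled) on CysF and 2983 ± 244 CPM on CTRL in EFAT of Cth-/- mice (SD, n = 4 each), a sum 5.66 times lower. In SFAT they averaged 703 ± 122 CPM on CysF and 7333 ± 3425 CPM on CTRL, a sum 10.4 times lower. In BAT they averaged 181 ± 29.3 CPM on CysF and 889 ± 82.1 CPM on CTRL, a sum 4.90 times lower. In each depot the highest CysF library lay below the lowest CTRL library.

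The type 6 sum was 4.06 times lower in EFAT, 6.88 times lower in SFAT and 4.21 times lower in BAT of Cth-/- mice on CysF than on CTRL. The basement membrane sum was 2.92 times lower in EFAT and 1.89 times lower in SFAT. In BAT the basement membrane sum was 1051 ± 117 CPM on CysF and 1142 ± 82.6 CPM on CTRL, with overlapping libraries. The sum of the others was 2.41 times lower in SFAT. It was 78.6 to 114 CPM on CysF and 92.6 to 168 CPM on CTRL in EFAT, with overlapping libraries, and 157 ± 44.0 CPM on CysF and 152 ± 48.4 CPM on CTRL in BAT.

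**Figure D1:**
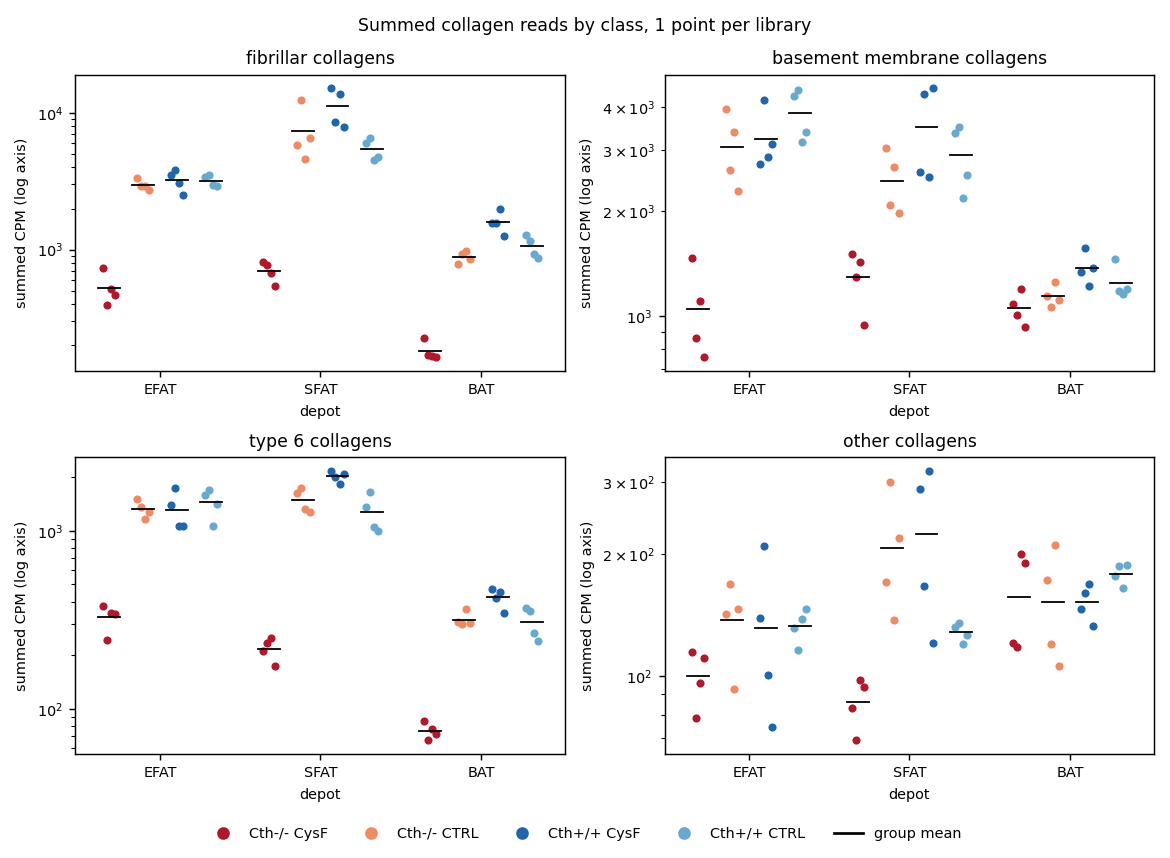
Summed TMM-scaled CPM of the members of each collagen class (vertical log axes) in each of the 48 libraries, by depot and group; black bars are means of 4 libraries. Fibrillar and type 6 sums of the Cth-/- CysF libraries lie below every other library of their depot, while the BAT basement membrane sums and the EFAT and BAT other sums of Cth-/- mice overlap between the diets.

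In edgeR's quasi-likelihood test with Benjamini-Hochberg adjustment over all genes, 17 of the 37 tested members were lower and 3 higher in EFAT, where 14.3% of all genes tested were called lower and 14.5% higher. In SFAT 19 of 36 were lower and none was higher (13.6% and 11.8% of all genes). In BAT 16 of 29 were lower and none was higher (10.2% and 7.81% of all genes). Without the libraries that stood apart, 17 were lower in EFAT, 18 in SFAT and 17 in BAT (9.59%, 11.5% and 9.91% of all genes). The median log2 fold change of the tested members was -0.62 in EFAT, -1.15 in SFAT and -1.22 in BAT, against 0.07, 0.03 and -0.01 over all genes tested.

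Libraries also fell into 2 sets by reads of the pseudogene Gm43512 (set A under 0.1 CPM, set B over it), with 7 libraries of each depot in set B, and the sets were uneven between diets in Cth-/- mice. What the sets stand for is not given in the labels. In EFAT of Cth+/+ mice all CysF libraries and CTRL replicate 3 were in set A, and CTRL replicates 1, 2 and 4 in set B. In EFAT the sets are therefore partly confounded with diet, with genotype and with their interaction, and these cannot be fully told apart. In EFAT set A held 1 CysF and 3 CTRL libraries, and 5 members were called there (4 lower, against 0.159% of all genes lower). Set B held 3 CysF libraries and 1 CTRL library, and 12 members were lower (0.828% of all genes). In SFAT and in BAT set A held 3 CysF and 2 CTRL libraries, and set B held 1 CysF library, replicate 20, and 2 CTRL libraries. In SFAT 19 members were lower in each set (14.5% of all genes in set A and 10.6% in set B). In BAT 15 were lower in set A and 6 in set B (5.44% and 0.917% of all genes). In the sets with 1 library of a diet, that library is assumed to vary like the other groups, and the SFAT replicate 20 is among the libraries that stood apart.

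**Figure D2:**
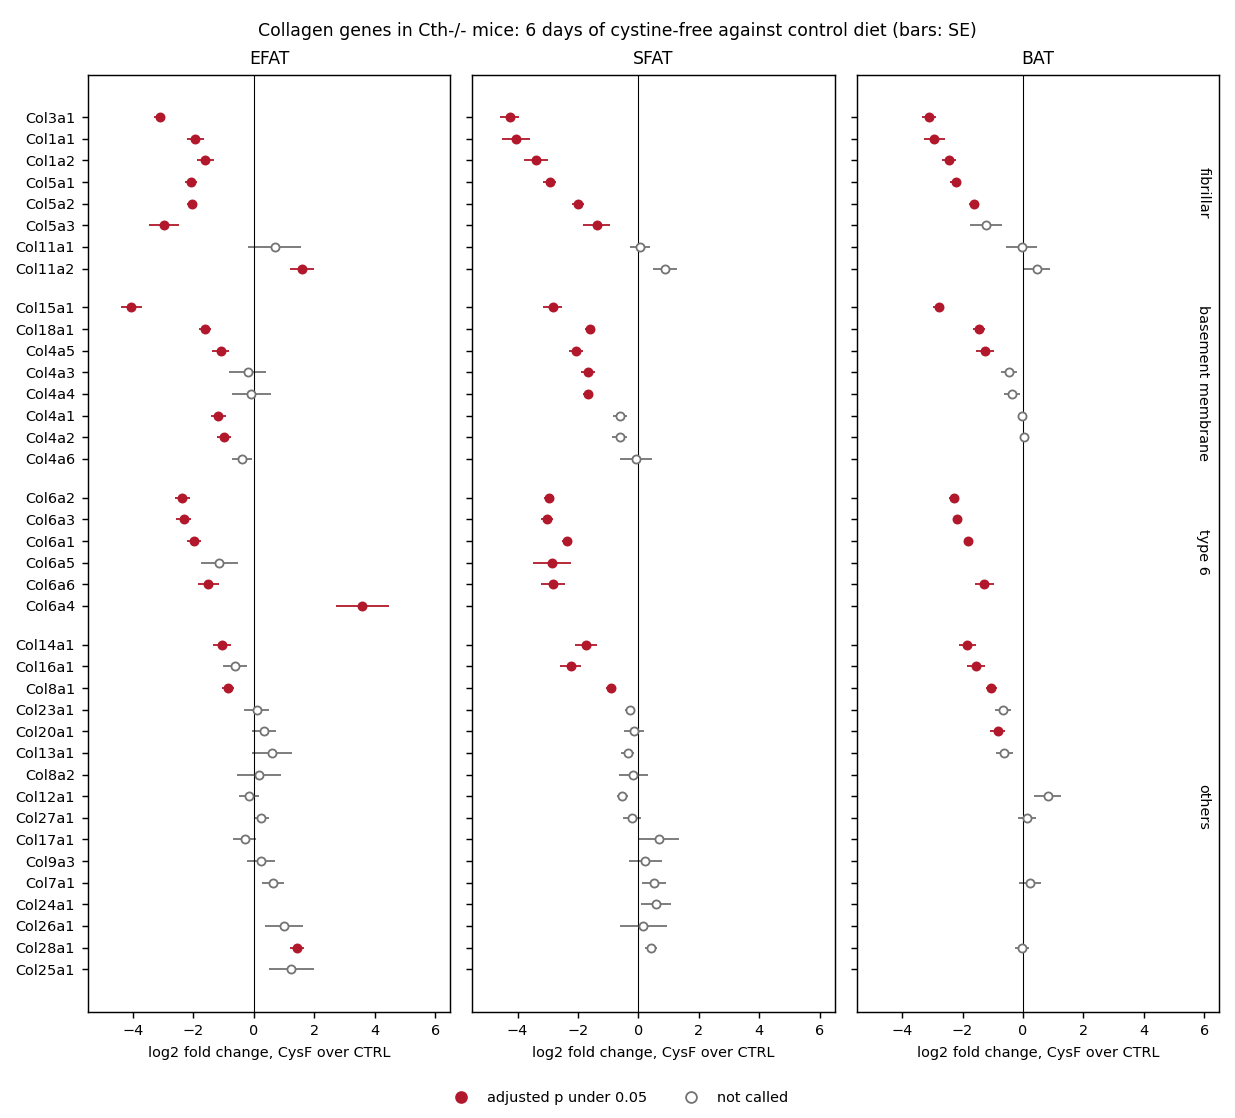
Log2 fold change (horizontal axis, CysF over CTRL in Cth-/- mice) with its standard error for each tested collagen gene, by class from top to bottom and by depot; filled points passed an adjusted p of 0.05. Filled points lie to the left in most fibrillar and type 6 genes, part of the basement membrane genes and a few of the others. The filled points to the right are Col11a2, Col6a4 and Col28a1 in EFAT.

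Of the 29 members tested in all depots, 14 were lower in all 3. Over all 14124 genes tested in all depots, 3.22% were lower in all 3. These 14 were the fibrillar Col1a1, Col1a2, Col3a1, Col5a1 and Col5a2, the basement membrane Col15a1, Col18a1 and Col4a5, the type 6 chains Col6a1, Col6a2, Col6a3 and Col6a6, and Col14a1 and Col8a1. Of the same 29, 8 were lower in no depot, namely Col11a1, Col11a2, Col12a1, Col13a1, Col23a1, Col27a1, Col28a1 and Col7a1.

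Among the fibrillar genes, Col3a1, the single chain of type 3 collagen found in extensible tissues, lies on chromosome 1 from 45311538 to 45349706 and had the highest level per length over all libraries. In EFAT of Cth-/- mice it had 27.2, 18.2, 26.5 and 21.1 RPKM on CysF, against 225.0, 214, 203 and 201 RPKM on CTRL. In SFAT it had 28.5, 35.8, 30.9 and 25.5 RPKM on CysF, against 481, 974, 370.0 and 509 RPKM on CTRL. In BAT it had 8.72, 6.25, 6.73 and 6.68 RPKM on CysF, against 46.8, 72.6, 57.7 and 71.2 RPKM on CTRL. No CysF library reached the lowest CTRL library in any depot. The log2 fold change was -3.12 ± 0.18 in EFAT, -4.26 ± 0.32 in SFAT and -3.12 ± 0.23 in BAT (SE, edgeR adjusted p 5.5e-07, 1.3e-06 and 5.7e-07).

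Type 1 collagen, the main fibril of connective tissue, is built from the chains of Col1a1 (chromosome 11, 94936224 to 94953042) and Col1a2 (chromosome 6, 4504814 to 4541544). In EFAT of Cth-/- mice Col1a1 had 14.7, 9.91, 11.9 and 17.2 RPKM on CysF, against 51.5, 62.7, 37.8 and 62.4 RPKM on CTRL. In SFAT it had 10.8, 13.8, 12.0 and 17.8 RPKM on CysF, against 146, 449, 103 and 214 RPKM on CTRL. In BAT it had 4.03, 2.68, 2.43 and 3.55 RPKM on CysF, against 20.1, 31.1, 22.7 and 23.9 RPKM on CTRL. The groups did not overlap, and the SFAT CTRL libraries spread most, with replicate 13 highest. The log2 fold change of Col1a1 was -1.94 ± 0.28 in EFAT, -4.05 ± 0.46 in SFAT and -2.94 ± 0.34 in BAT. That of Col1a2 was -1.61 ± 0.29 in EFAT, -3.38 ± 0.39 in SFAT and -2.45 ± 0.25 in BAT. All 6 values passed the test, with adjusted p between 2e-05 and 0.0014. Within the EFAT set of 1 CysF library neither was called (Col1a1 -1.79, adjusted p = 0.3), and Col1a1 was called within the other (-2.24, adjusted p = 0.021).

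Type 5 chains, which nucleate fibrils and set their width, were lower as well. Col5a1 had a log2 fold change of -2.07 in EFAT, -2.93 in SFAT and -2.22 in BAT, called in each. Col5a3, whose chain occurs in only some type 5 molecules, differed in how widely its libraries spread. In EFAT it had 30.8, 8.02, 7.64 and 4.72 RPKM on CysF, against 147, 67.2, 139 and 62.5 RPKM on CTRL, a called log2 fold change of -2.98 ± 0.50. In SFAT its log2 fold change of -1.38 passed at adjusted p = 0.031 but lost the call without replicate 12, 14, 17, 18 or 20 (adjusted p up to 0.082), with only the 2 groups compared (adjusted p = 0.058) and without the libraries that stood apart (-0.92, adjusted p = 0.14). It was -0.49 within set A (adjusted p = 0.31). In BAT it had 15.0, 11.3, 10.8 and 8.20 RPKM on CysF, against 37.8, 8.30, 48.2 and 10.1 RPKM on CTRL, and it was not called. Its log2 fold change there was -1.22 (adjusted p = 0.12), and 0.46 within one of the library sets.

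The type 11 genes, best known from cartilage, were called lower in no depot. Col11a2 (chromosome 17, 34039437 to 34066685) was called higher in EFAT, with 0.145, 0.152, 0.186 and 0.105 RPKM on CysF against 0.0339, 0.0734, 0.0355 and 0.0604 RPKM on CTRL. Its log2 fold change was 1.59 ± 0.40 (adjusted p = 0.0095) at a level far below those of types 1 and 3. Neither library set alone called it. A fixed list of cartilage markers, 6 of 8 found in the table, summed to 5.43 to 10.7 CPM in these CysF libraries and 0.617 to 7.24 CPM in the CTRL libraries, and its part in this result was not tested. Col11a1 was called in no depot, and Col2a1 had at most 8 counts in a library.

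**Figure D3:**
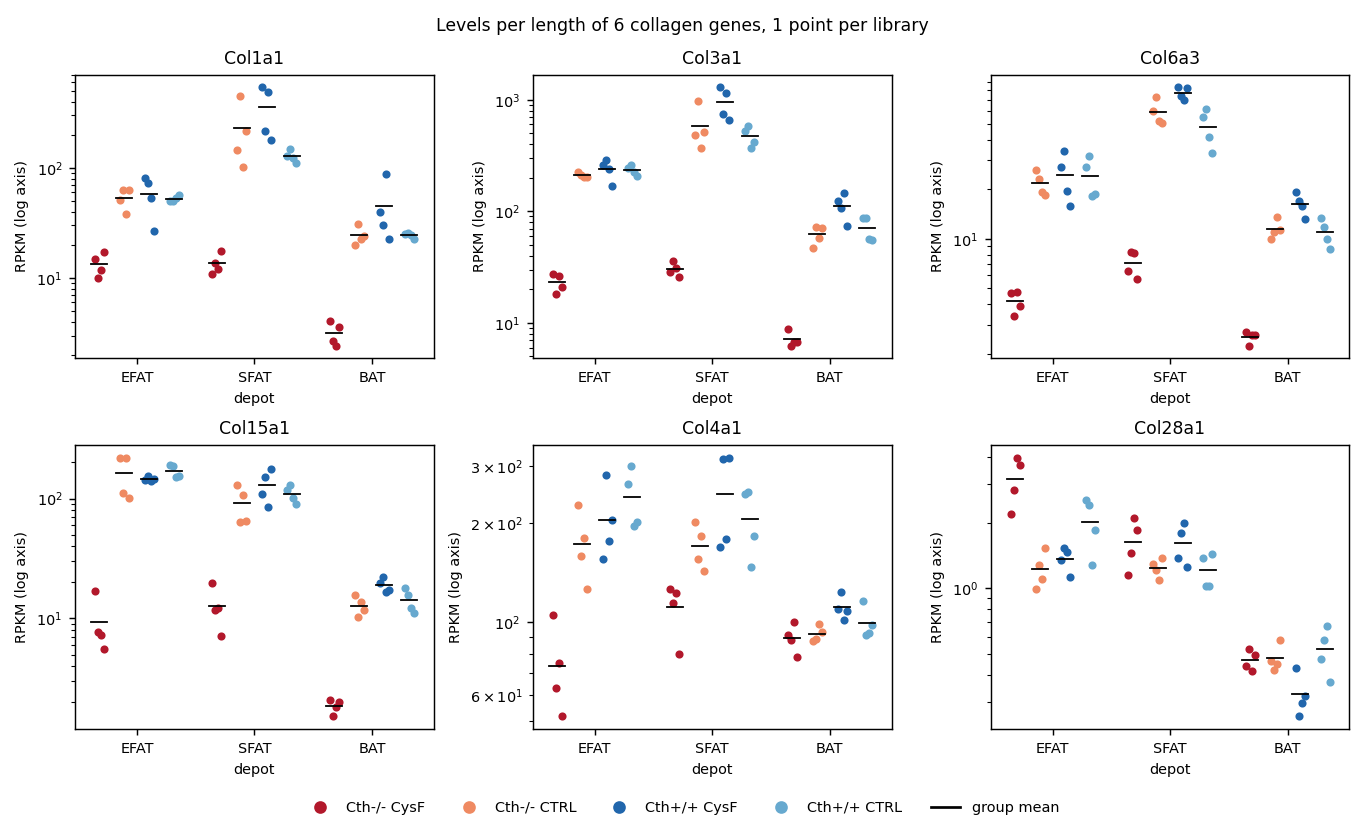
RPKM (vertical log axes) of Col1a1, Col3a1, Col6a3, Col15a1, Col4a1 and Col28a1 in each of the 48 libraries, by depot and group; black bars are means of 4 libraries. Cth-/- CysF libraries lie lowest for Col1a1, Col3a1, Col6a3 and Col15a1 in every depot, overlap Cth-/- CTRL libraries in BAT for Col4a1, and lie above the Cth-/- CTRL libraries in EFAT for Col28a1.

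In the basement membrane class, Col15a1 and Col18a1, whose chains carry chondroitin or heparan sulfate, were lower in all depots, and the main type 4 chains were called in EFAT only. Col15a1 (chromosome 4, 47208161 to 47313167), the chain of type 15, which links the basement membrane to the fibrils around it, had 16.9, 7.65, 7.32 and 5.54 RPKM on CysF in EFAT, against 218, 112, 216 and 101 RPKM on CTRL. In SFAT it had 19.6, 11.7, 12.3 and 7.08 RPKM on CysF, against 129, 63.7, 106 and 64.5 RPKM on CTRL. In BAT it had 2.08, 1.54, 1.81 and 2.01 RPKM on CysF, against 15.6, 10.3, 13.6 and 11.7 RPKM on CTRL. The libraries did not overlap, and the log2 fold change was -4.06 ± 0.35 in EFAT, -2.83 ± 0.32 in SFAT and -2.78 ± 0.18 in BAT (adjusted p 8.5e-06, 3.4e-05 and 3.4e-07). Col18a1, whose chain carries endostatin at its end, was lower by a like factor in the 3 depots, with a log2 fold change of -1.61 in EFAT, -1.60 in SFAT and -1.44 in BAT.

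Col4a1 and Col4a2 encode the chains of the common type 4 network and lie head to head on chromosome 8, overlapping by 22 exonic bases on opposite strands. Whether the counting used strand is not given in the sources used here. In EFAT Col4a1 had 105, 62.8, 75.1 and 51.7 RPKM on CysF, against 227, 159, 181 and 126 RPKM on CTRL. In SFAT it had 126, 115, 123 and 80.2 RPKM on CysF, against 202, 156, 183 and 143 RPKM on CTRL. In BAT it had 91.1, 88.1, 99.8 and 78.4 RPKM on CysF, against 87.4, 88.5, 98.9 and 93.3 RPKM on CTRL. The EFAT and SFAT groups did not overlap, and the BAT groups did.

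The test called the EFAT difference only, with a log2 fold change of -1.18 ± 0.25 for Col4a1 (adjusted p = 0.0037) and -0.99 ± 0.24 for Col4a2 (adjusted p = 0.0074). Neither EFAT library set alone called them. In SFAT the values were -0.61 ± 0.24 and -0.62 ± 0.25 (adjusted p = 0.071 and 0.081), and in BAT -0.04 ± 0.10 and 0.02 ± 0.12 (adjusted p = 0.81 and 0.94). Of the other type 4 chains, Col4a5 was called lower in all 3 depots, with a log2 fold change of -1.10 in EFAT, -2.08 in SFAT and -1.25 in BAT. Col4a3 and Col4a4, a divergent pair 71 bases apart on chromosome 1, were called in SFAT only (-1.67 and -1.66). The difference between depots was not called for these 3 genes.

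The chains of the main type 6 heterotrimer, Col6a1, Col6a2 and Col6a3, were all called lower in each depot. Col6a1 (chromosome 10, 76708792 to 76726168) had a log2 fold change of -1.99 in EFAT, -2.36 in SFAT and -1.81 in BAT. Col6a2 had -2.37, -2.97 and -2.28, and Col6a3 had -2.32, -3.03 and -2.17 in the same order of depots. Col6a3 (chromosome 1, 90765923 to 90843971), whose chain releases endotrophin, had 4.67, 3.39, 4.78 and 3.89 RPKM on CysF in EFAT, against 26.2, 23.1, 19.2 and 18.5 RPKM on CTRL. In SFAT it had 6.35, 8.27, 8.22 and 5.71 RPKM on CysF, against 60.0, 72.8, 51.8 and 50.3 RPKM on CTRL. In BAT it had 2.70, 2.24, 2.60 and 2.61 RPKM on CysF, against 9.94, 11.0, 13.6 and 11.2 RPKM on CTRL. All 9 comparisons of these chains were called, and the groups did not overlap for Col6a3 in any depot. Within the EFAT set of 1 CysF library none of the 3 was called, at similar fold changes (Col6a3 -2.29, adjusted p = 0.13).

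Col6a4, Col6a5 and Col6a6 lie in a row on chromosome 9 and encode chains that can stand in for that of Col6a3 in the mouse. Col6a6 was lower in all 3 depots (-1.51 in EFAT, -2.83 in SFAT and -1.27 in BAT). Col6a5 had 8.00, 5.36, 8.11 and 8.96 RPKM on CysF in EFAT of Cth-/- mice, against 6.57, 20.5, 13.8 and 29.5 RPKM on CTRL, overlapping groups that were not called. In SFAT it stood below 1 RPKM in all Cth-/- libraries and was called lower.

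Col6a4 (chromosome 9, 105989454 to 106096783) was called higher in EFAT, and 2 libraries carried this. It held 236, 19, 7 and 381 counts in CysF replicates 16, 17, 18 and 20, against 11, 23, 13 and 24 counts in the CTRL libraries. Replicates 16 and 20 were also the highest in a fixed list of 10 epididymis and epithelium markers, with sums of 349.6 and 788 CPM, against 92.1 and 110.4 CPM in the other two CysF libraries and 20.5 to 162 CPM in the CTRL libraries. Of that list, 3 markers were called higher and none lower in this comparison (14.5% and 14.3% of all genes). Lcn8 was at 0 in at least 1 library of each diet. The log2 fold change of Col6a4 was 3.58 ± 0.87 (adjusted p = 0.0081), and 2.46 without replicate 20 (adjusted p = 0.036). The part of these markers in the result was not tested.

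Of the remaining collagens, 2 were lower and 1 higher of 15 tested in EFAT, 3 were lower of 15 in SFAT and 4 were lower of 10 in BAT. Of all genes tested, 14.3% were lower and 14.5% higher in EFAT, so the EFAT counts of this class did not exceed those shares. In SFAT 13.6% and in BAT 10.2% of all genes were lower. Col14a1, which binds to the surface of fibrils, was lower in all 3 depots, with a log2 fold change of -1.06 in EFAT, -1.74 in SFAT and -1.84 in BAT. In EFAT that call was lost without CTRL replicate 12, without CysF replicate 17 and when the library set entered the fit. Col8a1, a short-chain network collagen of vessel walls, was also lower in all 3 (-0.85 in EFAT, -0.91 in SFAT and -1.05 in BAT). Col16a1, a fibril-associated chain, was lower in SFAT (-2.24) and BAT (-1.55) and was not called in EFAT (-0.62, adjusted p = 0.26). Col27a1, a fibrillar-type chain known from cartilage, was called in none of the depots in this comparison.

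Col28a1 (chromosome 6, 7997808 to 8192617), known in the mouse mainly from peripheral nerve, was the member with the opposite direction at a level above 1 RPKM. In EFAT of Cth-/- mice it had 2.20, 2.83, 3.96 and 3.68 RPKM on CysF, against 0.996, 1.28, 1.10 and 1.52 RPKM on CTRL. All CysF libraries lay above all CTRL libraries. The log2 fold change was 1.44 ± 0.23 (edgeR adjusted p = 0.00076), and it was 0.96 and 1.22 within the 2 library sets, where it was not called. In SFAT it was 0.41 and in BAT -0.03, neither called. Of a fixed list of 8 Schwann cell markers, none was called higher and 1 was called lower in EFAT (14.5% and 14.3% of all genes). Their sums were 28.3 to 35.9 CPM on CysF and 34.2 to 51.6 CPM on CTRL.

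The make-up of the collagen RNA differed between the diets as well. Col4a1 made up 22.0% of summed collagen RPKM on CysF and 13.2% on CTRL in EFAT of Cth-/- mice, 29.4% and 9.21% in SFAT on the same diets, and 39.5% and 22.3% in BAT. Col3a1 made up 7.10% on CysF and 16.3% on CTRL in EFAT, 8.11% on CysF and 28.5% on CTRL in SFAT, and 3.14% on CysF and 15.1% on CTRL in BAT. By mean RPKM, Col4a1 ranked first among the collagens on CysF in all depots of Cth-/- mice, and Col3a1 ranked first on CTRL in EFAT and SFAT. In BAT Col4a1 ranked first on both diets. All members together took 0.30% of reads on CysF and 1.04% on CTRL in EFAT. In SFAT they took 0.266% on CysF and 1.5% on CTRL, and in BAT 0.0902% on CysF and 0.144% on CTRL. The BAT libraries overlapped, at 0.0686% to 0.106% on CysF and 0.0974% to 0.163% on CTRL. The lowest of these CTRL libraries, replicate 12, held 45.7% mitochondrially encoded reads, against 24.7% to 37.5% in the other Cth-/- BAT libraries.

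**Figure D4:**
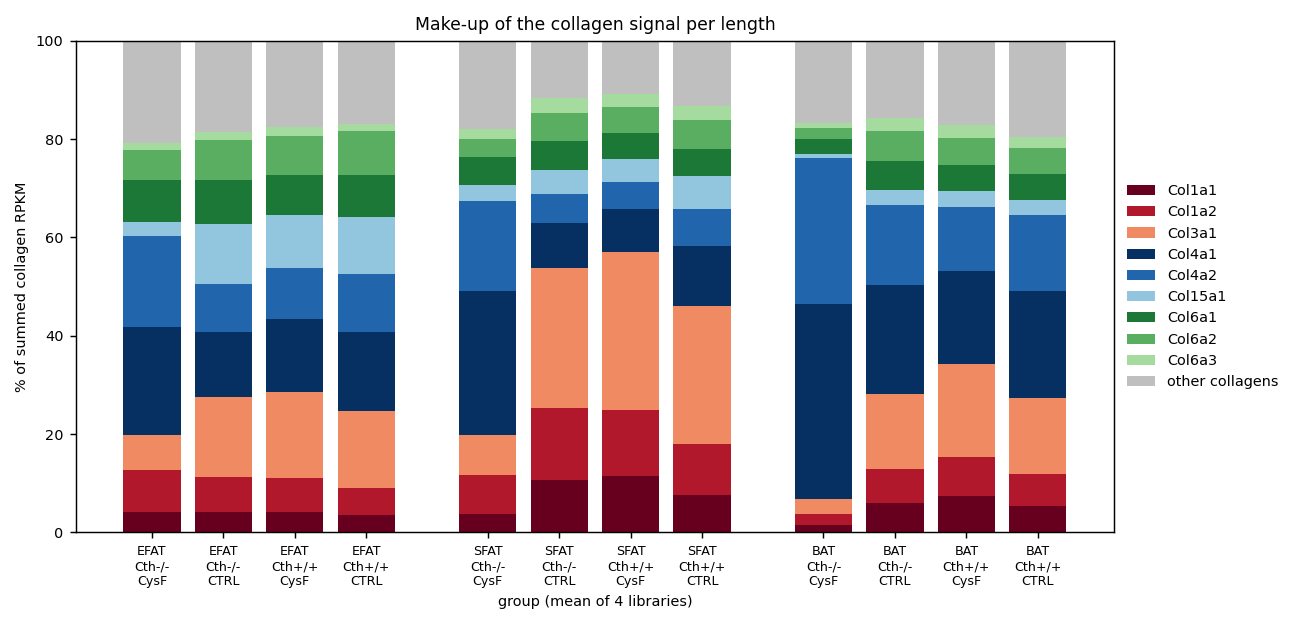
Share of summed collagen RPKM (vertical axis, percent, mean of 4 libraries) taken by the leading collagen genes in each of the 12 groups. The Cth-/- CysF bars differ from the other bars of their depot by a larger Col4a1 share, 22.0% in EFAT, 29.4% in SFAT and 39.5% in BAT, and a smaller Col3a1 share.

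In Cth+/+ mice no collagen gene was called for the diet in any depot by edgeR with Benjamini-Hochberg adjustment, where 0% of all genes were called in EFAT, 0.0664% in SFAT and 0.0826% in BAT. At an unadjusted p under 0.05 there were 1 member in EFAT, 15 in SFAT and 11 in BAT, against 3.93%, 14% and 9.8% of all genes. Without the libraries that stood apart none was called in any depot. DESeq2 called none in EFAT, 12 in SFAT and 1 in BAT, against 0.255%, 2.97% and 1.05% of all genes. The summed fibrillar reads in SFAT averaged 11311 ± 3651 CPM on CysF and 5476 ± 989 CPM on CTRL, the higher sum being on CysF.

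For Col1a1 in SFAT of Cth+/+ mice the libraries held 538, 215, 491 and 179 RPKM on CysF, against 128, 150, 123 and 110.4 RPKM on CTRL. Each CysF library lay above each CTRL library, and replicates 7 and 10 lay far above the other two. The log2 fold change was 1.46 ± 0.41 (edgeR adjusted p = 0.16), that of Col3a1 was 1.0 ± 0.28 (adjusted p = 0.15) and that of Col6a3 was 0.68 (adjusted p = 0.14). The summed macrophage markers were also highest in those 2 libraries, at 2714 and 2562 CPM, and in the Cth-/- CTRL replicate 13, at 2710 CPM, against 501 to 1707 CPM in the other SFAT libraries. Replicate 13 held the highest Col1a1 and Col3a1 of its group. The part of these markers was not tested. Within the library set that holds replicates 7 and 10, 15 members were called, all higher on CysF, against 4.58% of all genes called higher in that set. Without replicate 11 there were 4.

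Between the genotypes on the control diet no member was called in any depot (edgeR), where 0.0464% of all genes were called in EFAT, 0.103% in SFAT and 2.1% in BAT. At an unadjusted p under 0.05 there were 1 member in EFAT, 6 in SFAT and 2 in BAT, against 6.2%, 11% and 18.3% of all genes, and DESeq2 called none in the 3 depots (0.268%, 0.757% and 5.81% of all genes). Without the libraries that stood apart edgeR called none either. Within library set A 4 members were called in BAT, all lower (7.29% of all genes called). In SFAT 7 were called within set A, 4 higher and 3 lower (8.37%). On the cystine-free diet, Cth-/- mice had 17 lower and 3 higher members than Cth+/+ mice in EFAT (19.6% and 20.1% of all genes), 22 lower and none higher in SFAT (19.4% and 18.1%), and 18 lower and none higher in BAT (17.1% and 14.5%). Without the libraries that stood apart, 16 were lower and 3 higher in EFAT (15.4% and 16% of all genes). In SFAT 24 were then lower (18%) and in BAT 17 (14.6%). Col4a1, which was not called for the diet in SFAT or BAT of Cth-/- mice, was called here in all depots, with a log2 fold change of -1.42 ± 0.25 in EFAT, -1.13 ± 0.24 in SFAT and -0.29 ± 0.10 in BAT (adjusted p 0.00076, 0.0018 and 0.03). The BAT call was lost in 8 of 16 alternatives (adjusted p up to 0.34), among them without Cth-/- CysF replicate 16, 17 or 20, without Cth+/+ CysF replicate 8 and without the libraries that stood apart.

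The difference between the diet responses of the genotypes was tested directly as an interaction. It was negative, a lower response in Cth-/- mice, for 12 members in EFAT, 18 in SFAT and 13 in BAT, against 5.35%, 12.4% and 4.32% of all genes. It was positive for 1 member in EFAT and none in SFAT and BAT, against 5.04%, 9.39% and 2.1% of all genes. In SFAT Col1a1 had an interaction of -5.51 ± 0.61, Col3a1 of -5.26 ± 0.42 and Col6a3 of -3.70 ± 0.27 on the log2 scale (adjusted p 6.7e-05, 5.2e-06 and 3e-06). In BAT the same genes had -3.85 ± 0.46, -3.79 ± 0.31 and -2.77 ± 0.20, and in EFAT -2.09 ± 0.39, -3.14 ± 0.24 and -2.34 ± 0.34. Col15a1 had -3.82 in EFAT, -3.06 in SFAT and -3.21 in BAT. The positive one was Col28a1 in EFAT, at 2.0 ± 0.33 (adjusted p = 0.0034), a call lost when the library set entered the fit. In that fit 3 members were called in EFAT (Col3a1, Col5a2 and Col15a1), and within set A none. Without the libraries that stood apart the interaction was called for 12 members in EFAT (11 negative), 18 in SFAT and 14 in BAT. The shares of all genes called there were 4.71%, 21.4% and 5.4%.

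The depots also differed in their collagens without the mutation or the deficient diet. In Cth+/+ mice on CTRL, 25 members were higher and 5 lower in EFAT than in BAT (33.1% and 26.9% of all genes), and 23 were higher and 4 lower in SFAT than in BAT (27.1% and 25.9%). Of the fibrillar genes, Col3a1 was higher in SFAT than in BAT by 2.73 and Col1a1 by 2.38 on the log2 scale, and in EFAT than in BAT by 1.71 and 1.11. Col15a1 was higher by 3.59 in EFAT and 2.95 in SFAT than in BAT. Col27a1 ran the other way, lower by 4.82 in EFAT and lower by 3.51 in SFAT than in BAT.

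Between the white depots 8 members were higher and 7 lower in EFAT than in SFAT (9.57% and 5.66% of all genes), and without replicate 1 there were 9 calls in all. Without the libraries that stood apart, 26 were higher and 5 lower in EFAT than in BAT (33% and 26.9% of all genes). In SFAT against BAT 24 were higher and 4 lower (27% and 25.8%). In EFAT against SFAT 8 were higher and 7 lower (9.28% and 5.73%). Col6a5 stood out, with 14.1, 2.31, 10.6 and 22.3 RPKM in EFAT against 0.128, 0.129, 0.284 and 0.0980 RPKM in SFAT of Cth+/+ CTRL mice. The groups did not overlap, and the log2 difference was 6.26 ± 0.63 (edgeR adjusted p = 8.8e-10). Col8a2 and Col4a6 were also higher in EFAT, by 4.84 and 3.41. In EFAT Cth+/+ CTRL replicates 1, 2, 3 and 4 the epididymis and epithelium markers summed to 60.9, 22.2, 127 and 143 CPM. In the same order Col8a2 held 175, 45, 455 and 380 counts, and Col4a6 held 357, 208, 474 and 411. Col6a5, Col8a2 and Col4a6 were each lowest in replicate 2, as were these markers. The part of the markers in these depot differences was not tested. Col1a1 was lower in EFAT than in SFAT by a log2 difference of -1.28, Col1a2 by -1.15, Col3a1 by -1.01 and Col6a3 by -1.0. The Col1a1 call was lost without replicate 1, 2 or 3 (adjusted p up to 0.071) and the Col1a2 call without replicate 1 or 2 (adjusted p up to 0.074).

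Whether the diet response in Cth-/- mice differed between depots was tested in 1 model of the 48 libraries. These comparisons share samples. Between SFAT and BAT no member was called by edgeR (2.16% of all genes), 10 had an unadjusted p under 0.05 (14.5% of all genes) and DESeq2 called 2 (4.3% of all genes). With the replicate number as a block, Col3a1, Col4a2, Col6a3 and Col6a6 were called, all with a more negative response in SFAT, where 1.98% of all genes were called in that direction. Between EFAT and BAT 3 were called lower and 2 higher, 7.69% and 5.13% of the 39 members tested. Both lay below the shares of all genes (8.93% and 7.29%). Between EFAT and SFAT 5 were called higher and none lower (1.04% and 3.35% of all genes). With the block, 10 were called higher and 3 lower between EFAT and SFAT (4.14% and 8.03% of all genes). The response of Col15a1 was more negative in EFAT than in BAT by -1.33 ± 0.41 on the log2 scale (adjusted p = 0.023), that of Col4a1 by -1.19 ± 0.30 (adjusted p = 0.0065) and that of Col4a2 by -1.07 ± 0.31 (adjusted p = 0.017). The Col15a1 call was lost in 7 of 14 alternatives (adjusted p up to 0.094), namely without replicate 12, 14, 17, 18 or 20, with the library set as a term and without the libraries that stood apart. The Col4a1 call was lost without replicate 12 (adjusted p = 0.056), and the Col4a2 call without replicate 12 or 17 and without the libraries that stood apart (adjusted p up to 0.085). The response of Col28a1 was more positive in EFAT by 1.41 ± 0.31 (adjusted p = 0.0019), a call kept in all 14 alternatives.

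Against SFAT, the responses of Col1a1, Col1a2 and Col3a1 were less negative in EFAT, by 2.07 ± 0.51, 1.73 ± 0.45 and 1.09 ± 0.33 (adjusted p 0.015, 0.022 and 0.049). Without replicate 13 that of Col1a1 was 1.59 (adjusted p = 0.072), and 1 member was called in all. The Col1a1 call was also lost without replicate 16, and the Col1a2 call without replicate 13, 16, 17 or 20 (adjusted p up to 0.079). The Col3a1 call was lost in 11 of 14 alternatives (adjusted p up to 0.2), in 8 of them by leaving out a single replicate. The Col28a1 response was higher in EFAT than in SFAT by 0.97 ± 0.29 (adjusted p = 0.046), a call lost in 10 of 14 alternatives (adjusted p up to 0.16). Col6a4 was called against both depots (5.59 against BAT and 6.04 against SFAT), and neither call held without the libraries that stood apart. Its fitted values against BAT, where the Cth-/- libraries held at most 3 counts, depend on the prior count and are no bound.

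The enzymes that make collagen were followed by fixed lists, given as counts in Cth-/- mice on CysF against CTRL. These counts stand beside 14.3% of all genes called lower in EFAT, 13.6% in SFAT and 10.2% in BAT. Of all genes, 14.5% were called higher in EFAT, 11.8% in SFAT and 7.81% in BAT. Of the chaperones and hydroxylases of procollagen, 11 of 17 tested were lower in EFAT, 12 of 17 in SFAT and 4 of 17 in BAT, and none was higher. Serpinh1, the collagen-specific chaperone HSP47, had a log2 fold change of -2.38 in EFAT, -1.91 in SFAT and -1.01 in BAT, all called. Of the procollagen proteinases and their enhancers, 4 of 8 were lower in EFAT, 4 of 7 in SFAT and 3 of 7 in BAT. Among them, Pcolce, which enhances cleavage of the C-terminal propeptide, had -1.55, -2.42 and -0.69 in EFAT, SFAT and BAT, and Bmp1, the proteinase itself, had -0.88, -1.97 and -1.04.

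Of the crosslinking enzymes of the lysyl oxidase family, 3 of 5 were lower in EFAT, 4 of 5 in SFAT and 1 of 4 in BAT. Loxl2 was lower in all depots (-1.39 in EFAT, -2.30 in SFAT and -1.56 in BAT). Loxl1 was lower in EFAT (-1.63) and SFAT (-1.20) and higher in BAT (0.93), and Lox was called in none. Of the collagen receptors, 2 of 9 were lower in EFAT, a share near that of all genes, 6 of 9 in SFAT and 4 of 9 in BAT, with Mrc2, which takes collagen up into cells, lower in all 3. The list of collagen degradation also holds the inhibitors Timp1, Timp2 and Timp3, so its counts mix proteinases and inhibitors. Of its genes, 1 of 8 was lower in EFAT, again near the share of all genes. Timp3, an inhibitor of matrix metalloproteinases, was higher there (0.88). In SFAT 5 of 8 were lower and Timp3 higher (0.43), and in BAT 5 of 7 were lower. Of the TGF-beta ligands, receptors and SMADs, listed together with Ctgf, 4 of 12 were lower and 2 higher in EFAT. In SFAT 3 were lower and 1 higher, and in BAT none was lower and 3 were higher.

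Markers of fibroblasts and adipocyte progenitors, the main source of fibrillar collagen in fat, were lower in the same comparison. Of the 16 listed, 10 were lower and 1 higher in EFAT (14.3% and 14.5% of all genes). In SFAT 14 were lower (13.6% of all genes) and in BAT 11 (10.2%). The median log2 fold change of these markers was -0.82 in EFAT, -1.26 in SFAT and -1.02 in BAT, against -1.99, -2.47 and -1.93 for the tested fibrillar collagens. The summed markers were 3698 to 5641 CPM on CysF and 6027 to 7463 CPM on CTRL in EFAT, 3180 to 5668 CPM on CysF and 7302 to 10227 CPM on CTRL in SFAT, and 587 to 725 CPM on CysF and 833 to 1108 CPM on CTRL in BAT. In EFAT Dcn, a small proteoglycan of fibroblasts, was called higher (0.78), and Pdgfra, the receptor that marks progenitors, had 69 to 103 CPM on CysF and 58 to 107 CPM on CTRL.

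In Cth-/- mice the fibrillar sum per unit of the marker sum was lower on CysF in every depot. It was 0.101 to 0.131 on CysF and 0.392 to 0.521 on CTRL in EFAT, 0.119 to 0.180 on CysF and 0.628 to 1.20 on CTRL in SFAT, and 0.247 to 0.311 on CysF and 0.787 to 1.16 on CTRL in BAT. These ratios of Cth-/- mice did not overlap between the diets in any depot. In SFAT of Cth+/+ mice the ratio was higher on CysF, at 1.20 to 1.53 against 0.573 to 0.886 on CTRL. In EFAT and BAT of Cth+/+ mice it overlapped between the diets. The BAT means there were 1.42 on CysF and 1.01 on CTRL.

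Counts of markers of other cell types stand beside 14.3% of all genes called lower and 14.5% higher in EFAT. The shares were 13.6% and 11.8% in SFAT, and 10.2% and 7.81% in BAT. Of 10 macrophage markers, 8 were lower in EFAT, 8 in SFAT and 9 in BAT, with Mertk higher in EFAT and SFAT. No endothelial marker of 10 was lower in any depot. Mural and smooth muscle markers were mixed, with 3 of 10 higher and 3 lower in EFAT, 1 higher and 2 lower in SFAT, and 1 lower in BAT. The SFAT and BAT counts lay near the shares of all genes. Of 8 adipocyte markers, 3 were lower in EFAT, 1 was higher in SFAT, and 2 were higher and 1 lower in BAT. Their sum was 13242 to 16040 CPM on CysF and 17632 to 26616 CPM on CTRL in EFAT, overlapped between the diets in SFAT, and was 16628 to 19562 CPM on CysF and 13460 to 14925 CPM on CTRL in BAT. Of 8 brown adipocyte markers, 2 of the 7 tested were higher in EFAT, 8 of 8 in SFAT and 2 of 8 in BAT. Their sum was 356 to 1689 CPM on CysF and 203 to 339 CPM on CTRL in SFAT, and 10992 to 13810 CPM on CysF and 4748 to 7773 CPM on CTRL in BAT, with no overlap in either. Mesothelium markers, with 1 of 8 lower in EFAT, near the share of all genes, summed there to 109 to 139 CPM on CysF and 148 to 263 CPM on CTRL. In BAT 9 of 12 skeletal muscle markers were lower. In SFAT 8 of 10 B cell and lymph node markers were lower, while their sum was 58.5 to 126 CPM on CysF and 15.4 to 150.2 CPM on CTRL. The highest CTRL library there was replicate 14, and the marker called higher, Cxcl13, made up 56.0 to 121 CPM on CysF and 11.5 to 27.3 CPM on CTRL. The part of these lists in the collagen results was not tested.

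**Figure D5:**
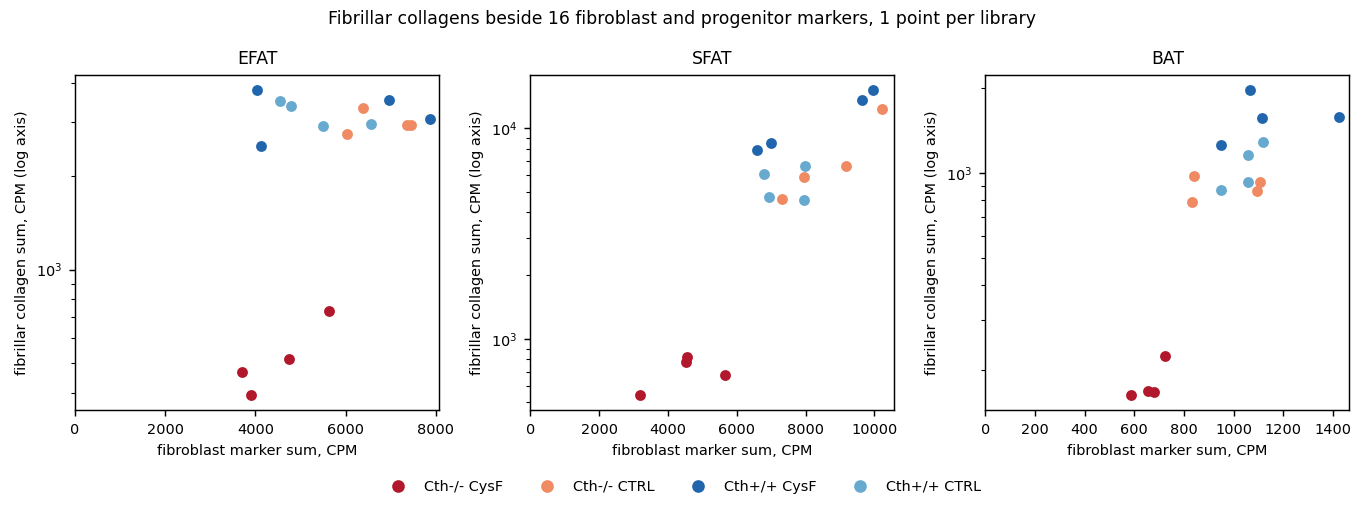
Summed fibrillar collagen CPM (vertical log axis) against summed CPM of 16 fibroblast and adipocyte progenitor markers (horizontal linear axis) for the 48 libraries, in a panel per depot, with points coloured by group. The Cth-/- CysF libraries form the lowest points of each panel, and their fibrillar sum per marker sum of 0.101 to 0.131 in EFAT lies below the 0.392 to 0.521 of the Cth-/- CTRL libraries.

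The diet withdraws cystine, so the cysteine content of the members was set beside their fold changes as a description across genes, which are not independent replicates. The median number of cysteine codons per 1000 codons was 8.06 in the fibrillar class, 12.4 in the basement membrane class, 13.6 in type 6 and 9.54 in the others. Spearman's rho between cysteine codons and the log2 fold change in Cth-/- mice was -0.03 over 37 genes in EFAT, -0.29 over 36 in SFAT and -0.14 over 29 in BAT.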

How the data were processed

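Expression was measured by poly(A) RNA sequencing of 48 fat libraries. The authors deposited expected counts per gene, not scaled. Per the submitters' processing notes, FastQC, STAR, Picard and RSEM were used with the build mm10, while versions, the annotation and the use of strand are not stated there. Each library held 5.31% to 8.16% fractional values, and the counts were rounded. Gene IDs of 47224 genes were matched without version to GENCODE M21 (GRCm38), which gave coordinates and lengths.

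Each depot was fitted with the edgeR quasi-likelihood test (edgeR 4.0.16, limma 3.58.1, R 4.3.3) over the 16 libraries of its 4 groups, scaled by TMM. Genes were kept by filterByExpr at a minimum count of 10 and a minimum total of 15. Depots were compared in a fit of all 48 libraries. Benjamini-Hochberg adjustment ran over all genes tested, and a gene was called at an adjusted p under 0.05. The standard errors of log2 fold changes are approximate. Each is the absolute log2 fold change divided by the square root of the F statistic of its test. The 21 comparisons were repeated with RLE scaling, without the filter, with DESeq2 1.42.0, with only the groups compared, with the library set as a term or within each set, with each replicate left out and, between depots, with the replicate number as a block. The labels do not say that replicate numbers pair libraries across depots. In Cth-/- mice the deviations of same-numbered SFAT and BAT libraries from their group means correlated at 0.123 to 0.537 in 8 of 8 pairs. Those of EFAT and SFAT libraries correlated over 0.1 in 7 of 8 pairs. The blocked result is therefore given beside both comparisons, a choice made after the fits were seen. A repeat without the 4 libraries that stood apart was added after the data were seen. Class sums are descriptions of TMM-scaled CPM. Total counts of 16.2 to 46.0 M per library limit the precision of genes with few counts. The scripts were tested on simulated data with known changes. Tables and figures used Python 3.11.15, pandas 2.3.3 and matplotlib 3.10.9.

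The members, lists, library sets and tests were chosen with earlier results of these data known. By rule, the 4 members of each class with the highest mean RPKM were named, and in each comparison up to 6 called members that changed most, if their mean reached 1 CPM, called members that moved against the majority, and all called members where 5 or fewer were called. Other members named were chosen after their values were seen. Cysteine codons of the GENCODE transcripts were used in place of the planned protein sequences, a change made after the files were seen.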

Additional observations from a re-analysis of the deposited data

Results flagged for a closer look

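Of 240 groups of 4 libraries tested for a library far from the other three, 10 held one, and chance gives about 1 in 20. In BAT the Cth-/- CysF replicate 16 had a fibrillar sum of 225 CPM, above its group. The type 6 sum of 363 CPM in BAT Cth-/- CTRL replicate 14 was above its group, and Col16a1 at 1.56 CPM in BAT Cth-/- CTRL replicate 12 was below it. BAT Cth+/+ CTRL replicate 1 was high in the basement membrane sum (1453 CPM) and in Col4a2 (532 CPM). In EFAT, Cth-/- CysF replicate 16 was high in Col5a3 (188 CPM), and Cth+/+ CysF replicate 8 was high in Col18a1 (147 CPM) and Col8a1 (20.1 CPM). In SFAT, Cth+/+ CysF replicate 10 was apart in Col6a2 (524 CPM) and Cth+/+ CTRL replicate 3 in Col6a5 (2.64 CPM).

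The diet response differed between the genotypes for 13 collagen genes in EFAT, 18 in SFAT and 13 in BAT by the interaction test. Of all genes, 10.4%, 21.7% and 6.42% were called. The collagen interactions were negative except for 1 in EFAT. With the library set as a term the EFAT count was 3 (0.33% of all genes). In Cth-/- mice the diet response was called more negative in EFAT than in BAT for Col15a1 (-1.33), Col4a1 (-1.19) and Col4a2 (-1.07) on the log2 scale. It was called more positive for Col6a4 (5.59) and Col28a1 (1.41). These are 7.69% and 5.13% of the members tested, below the 8.93% and 7.29% of all genes. The Col15a1 call was lost in 7 and the Col6a4 call in 8 of 14 alternatives. Against SFAT the response in EFAT was called higher for Col1a1 (2.07), Col3a1 (1.09), Col1a2 (1.73), Col6a4 (6.04) and Col28a1 (0.97). The Col3a1 call was lost in 11 and the Col28a1 call in 10 of 14 alternatives.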

How the results depend on the processing

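Over the 21 comparisons 241 calls of members were made, and none of them changed sign in the 3745 repeats of these calls under the alternatives. Within library set B, 6 members were called for the diet in BAT of Cth-/- mice, 10 for the genotype on CysF and 1 for the interaction in BAT, 12 for the diet in EFAT of Cth-/- mice and 15 for the diet in SFAT of Cth+/+ mice. Within set A there were 4 for the genotype on CTRL in BAT and 7 in SFAT, and in EFAT 5 for the diet in Cth-/- mice, 4 for the genotype on CysF and 0 for the interaction. These fits hold fewer libraries. With the set as a term there were 3 for the EFAT interaction (0.33% of all genes). For the difference in diet response there were 1 for SFAT against BAT, 3 for EFAT against BAT and 3 for EFAT against SFAT. The shares of all genes there were 3.52%, 11.9% and 2.77%. DESeq2 called 1 for the diet in BAT and 12 in SFAT of Cth+/+ mice (1.05% and 2.97% of all genes). For the difference in diet response it called 2 for SFAT against BAT and 8 for EFAT against SFAT (4.3% and 8.41%). Without the filter there were 3 for EFAT against SFAT in that difference (1.61% of all genes). Without the libraries that stood apart there were 2 for EFAT against BAT and 2 for EFAT against SFAT (10.3% and 1.63%). The cause was not tested.

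Over all mice, 31 of 48 pairs of same-numbered libraries correlated over 0.1 (median 0.210, range -0.153 to 0.580). In Cth-/- mice it was 8 of 8 pairs for SFAT and BAT, 7 of 8 for EFAT and SFAT and 4 of 8 for EFAT and BAT. With the replicate block, the difference in diet response was called for 4 members for SFAT against BAT, all lower (4.86% of all genes called). It was called for 9 for EFAT against BAT, 5 higher and 4 lower (23.1%), and for 13 for EFAT against SFAT, 10 higher and 3 lower (12.2%).

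Leaving out 1 replicate gave 0 to 4 calls for the diet in SFAT of Cth+/+ mice (4 without CysF replicate 11) and 9 to 12 for EFAT against SFAT at baseline. It gave 1 to 5 for the response of EFAT against BAT (1, 3 and 2 without replicates 12, 14 and 17) and 1 to 4 for EFAT against SFAT. For EFAT against SFAT there was 1 call without replicate 13, 2 without 16, 17 or 20 and 3 without 12, 14 or 18. For the diet in Cth-/- mice these fits gave 20 to 21 calls in EFAT, 18 to 20 in SFAT and 15 to 18 in BAT.

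Genes that were not called changed sign in places. For the diet in BAT of Cth-/- mice, Col5a3 had 0.46 and Col4a1 0.071 within set A, and Col4a2 had -0.24 within set B. Leaving out 1 replicate there gave -0.093 to 0.0051 for Col4a1, -0.064 to 0.089 for Col4a2 and -0.098 to 0.41 for Col27a1. Within set B Col27a1 had 0.52 in SFAT and -0.31 in EFAT, and within set A Col16a1 had 0.086 in EFAT. For the diet in SFAT of Cth+/+ mice Col5a3 had -0.11 within set B and -0.093 to 0.44 with 1 replicate left out. The others in EFAT of Cth-/- mice had a lower sum on CysF but a median log2 fold change of 0.23. Members with few counts, such as Col11a2, are limited by depth.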
